A study of Mus musculus with 48 samples.

Results

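Kidney slices of 2 inbred mouse strains were compared after 6 h in culture. The comparison used every nephrotoxicity library labelled control 6h, Tunicamycin 6h or Cyclosporin 6h, which gave 18 of the 48 libraries in the series, 9 from DBA/2J and 9 from C57BL/6J. Each strain had 3 untreated control libraries, 3 with tunicamycin and 3 with cyclosporin A, so that treatment was balanced over strain. Tunicamycin blocks N-linked protein glycosylation, and cyclosporin A is a calcineurin inhibitor with known kidney toxicity. The mice were male. Doses, ages and vehicle are not stated in the labels used here, and the labels do not say whether slices with the same replicate number came from one mouse. The 9 libraries of a strain may therefore come from as few as 3 mice, and the p-values measure the spread between libraries and may be too small.

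DBA/2J and C57BL/6J are the parental strains of the BXD recombinant inbred panel, and they carry different alleles at many expressed genes and different MHC haplotypes. The proximal tubule takes back most of the filtered solute and is rich in uptake transporters and drug-metabolizing enzymes. Cutting and culturing a slice is a stress in itself, which in tissue explants induces immediate early genes, heat shock proteins and cytokines. Heat shock proteins are chaperones under the transcription factor HSF1, which binds heat shock elements, and interferon-stimulated genes are antiviral and signalling genes under transcription factors such as IRF9, which bind interferon-stimulated response elements.

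Upstream sequences of 6 genes are shown because most heat shock and interferon-stimulated genes were lower in DBA/2J, as the results below describe. Each run covers the 250 bases before the RefSeq transcription start on GRCm38.p6, read 5′ to 3′ on the strand of the gene. Capitals in the first pair mark GAANNTTC, the core of the heat shock element, which reads the same on both strands. Hspb1 lies on the plus strand at chr5:135887669-135887918, and Hspa1b on the minus strand at chr17:34959239-34959488.
Hspa1b: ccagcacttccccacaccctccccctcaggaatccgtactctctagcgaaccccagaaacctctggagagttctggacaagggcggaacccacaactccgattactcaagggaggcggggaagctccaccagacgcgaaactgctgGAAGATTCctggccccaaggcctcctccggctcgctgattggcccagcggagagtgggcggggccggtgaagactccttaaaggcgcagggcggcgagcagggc
Hspb1: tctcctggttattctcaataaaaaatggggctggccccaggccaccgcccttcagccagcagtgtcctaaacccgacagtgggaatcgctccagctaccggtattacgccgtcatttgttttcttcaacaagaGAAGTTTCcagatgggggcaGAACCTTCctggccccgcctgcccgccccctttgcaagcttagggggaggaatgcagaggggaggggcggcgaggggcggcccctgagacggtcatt
Capitals in the next 4 runs mark TTTCNNTTT on either strand, a short form of the core of the interferon-stimulated response element. Matches that overlap run together in the window of Isg15. Ifit1 is on the plus strand at chr19:34640639-34640888, and the other windows are on the minus strand, Isg15 at chr4:156200819-156201068, Rsad2 at chr12:26456453-26456702 and Cxcl10 at chr5:92348890-92349139.
Ifit1: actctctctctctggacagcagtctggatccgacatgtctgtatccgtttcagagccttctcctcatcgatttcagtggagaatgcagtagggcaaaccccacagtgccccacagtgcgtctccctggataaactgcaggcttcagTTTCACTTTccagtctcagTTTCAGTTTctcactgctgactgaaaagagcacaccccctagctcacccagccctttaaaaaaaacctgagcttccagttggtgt
Isg15: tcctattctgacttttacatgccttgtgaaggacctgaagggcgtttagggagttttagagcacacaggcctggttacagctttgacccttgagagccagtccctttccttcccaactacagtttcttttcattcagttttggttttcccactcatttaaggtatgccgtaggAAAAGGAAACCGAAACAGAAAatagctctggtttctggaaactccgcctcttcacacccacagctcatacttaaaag
Rsad2: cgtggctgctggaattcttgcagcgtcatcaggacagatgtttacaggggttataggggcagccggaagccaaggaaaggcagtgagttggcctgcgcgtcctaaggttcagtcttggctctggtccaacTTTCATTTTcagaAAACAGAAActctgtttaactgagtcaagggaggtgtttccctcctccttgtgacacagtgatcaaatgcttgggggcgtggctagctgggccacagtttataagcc
Cxcl10: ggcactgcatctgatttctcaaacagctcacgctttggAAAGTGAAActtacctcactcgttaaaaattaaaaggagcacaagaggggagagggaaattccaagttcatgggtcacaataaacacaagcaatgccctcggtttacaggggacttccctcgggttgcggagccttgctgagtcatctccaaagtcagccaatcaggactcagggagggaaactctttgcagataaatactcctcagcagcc
Of the 19 heat shock genes on the list, 13 were matched by symbol in the RefSeq promoter table, and 6 of these 13 held GAANNTTC in a window of 250 bases (Dnaja1, Hspa1a, Hspa1b, Hspb1, Hspd1 and Hspe1). The motif was present for 2088 of all 27025 genes in the table (7.73%). Of the 32 interferon-stimulated genes, 24 were matched and 17 of them held TTTCNNTTT, which was present for 2915 of all 27025 genes (10.8%). A form 1 base longer, which had been searched first, was held by 16 of the 24 and by 936 of all 27025 genes (3.46%), so the shorter form is the less specific. Both motifs, and the 6 genes shown, were chosen with the expression results and these windows already seen. Among lower genes, Hsph1, Bag3 and Dnajb1 held no GAANNTTC, and Ifit2, Ifih1 and Oasl2 no TTTCNNTTT. A match is a description of the letters in the window and was not tested for binding or for a link to the strain difference. The sequences are those of the reference genome, which is C57BL/6J, so they do not show the DBA/2J allele.

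The 18 libraries held between 16330120 and 22841801 counts assigned to genes. On the first principal component of log2 CPM (counts scaled to 1000000 in each library), with 63.7% of the variance, the 9 C57BL/6J libraries lay between -66.5 and -42.4 and the 9 DBA/2J libraries between 43.7 and 58.4. Of 16896 genes that passed the filter on low counts, 9352 differed between the strains at an adjusted p under 0.05 (55.4%), with 4697 higher (27.8%) and 4655 lower (27.6%) in DBA/2J. With a log2 difference of at least 1 in either direction, 1870 genes remained (11.1%). The edgeR test of whether the strain difference depended on treatment called 0 of 16896 genes (387 at an unadjusted p under 0.05, and 0 with DESeq2). With 3 libraries in each group this test can miss such genes, so it does not show that the strain difference was the same in all treatments. For each gene 1 strain difference, over the 3 treatments together, is given below. The 3 C57BL/6J libraries with replicate number 2 stood apart from the other C57BL/6J libraries in having the lowest summed level of proximal tubule transporters within each treatment, 4213, 3800.2 and 2873 CPM in control, tunicamycin and cyclosporin A. When counts were summed over treatments for each strain and replicate number, 3 sums against 3, 6570 of 18446 genes were called (35.6%), and 6309 of these were also called in the fit of 18 libraries, with the same sign. None of the genes called there and tested in both had the opposite sign with the sums. Counts of list members below are to be read against these shares of all genes, and no list was tested as a set.

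Genes known to differ between the strains by sequence or copy number were looked at first, as a check of the strain labels. H2-Ea-ps (ENSMUSG00000036322, chr17:34341959-34344645), the class II gene that is not expressed from the MHC haplotype of C57BL/6J, was at 0 to 0.0612 CPM (median 0) in C57BL/6J and 106 to 163 CPM (median 141) in DBA/2J. The 9 C57BL/6J libraries held 2 counts of it in all and the 9 DBA/2J libraries 26233. Gpnmb (ENSMUSG00000029816, chr6:49036546-49070929), a melanosomal glycoprotein gene that carries a premature stop in DBA/2J, was low in both strains, at 0.672 to 2 CPM (median 1.24) in C57BL/6J and 0.097 to 0.515 CPM (median 0.231) in DBA/2J, and its log2 difference was -2.37 (SE 0.30, edgeR adjusted p = 2.29e-06). Glo1 (ENSMUSG00000024026, chr17:30584936-30626871), the glyoxalase gene that is duplicated in DBA/2J, was at 40.9 to 50.7 CPM (median 48.6) in C57BL/6J and 108 to 125 CPM (median 116) in DBA/2J. Alad (ENSMUSG00000028393, chr4:62509169-62519918), a heme synthesis enzyme gene that is also duplicated there, was at 25 to 50 CPM (median 38.5) in C57BL/6J and 116 to 146 CPM (median 127) in DBA/2J. The log2 differences of Glo1 and Alad were 1.15 and 1.62, and no library of one strain reached the range of the other for either gene. Nnt (ENSMUSG00000025453, chr13:119335448-119408997), the transhydrogenase gene with a deletion in C57BL/6J, had 97.2 to 132 CPM (median 113) in C57BL/6J and 195 to 244 CPM (median 227) in DBA/2J, a log2 difference of 0.84 (SE 0.06, edgeR adjusted p = 6.03e-10). Ahr, the dioxin receptor, whose ligand affinity differs between the strains, gave a log2 difference of 0.20 (SE 0.12, edgeR adjusted p = 0.182), which did not pass. Among 13 tested genes on the list of known strain variants, 7 were higher, 2 were lower and 4 did not pass.

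**Figure D1:**
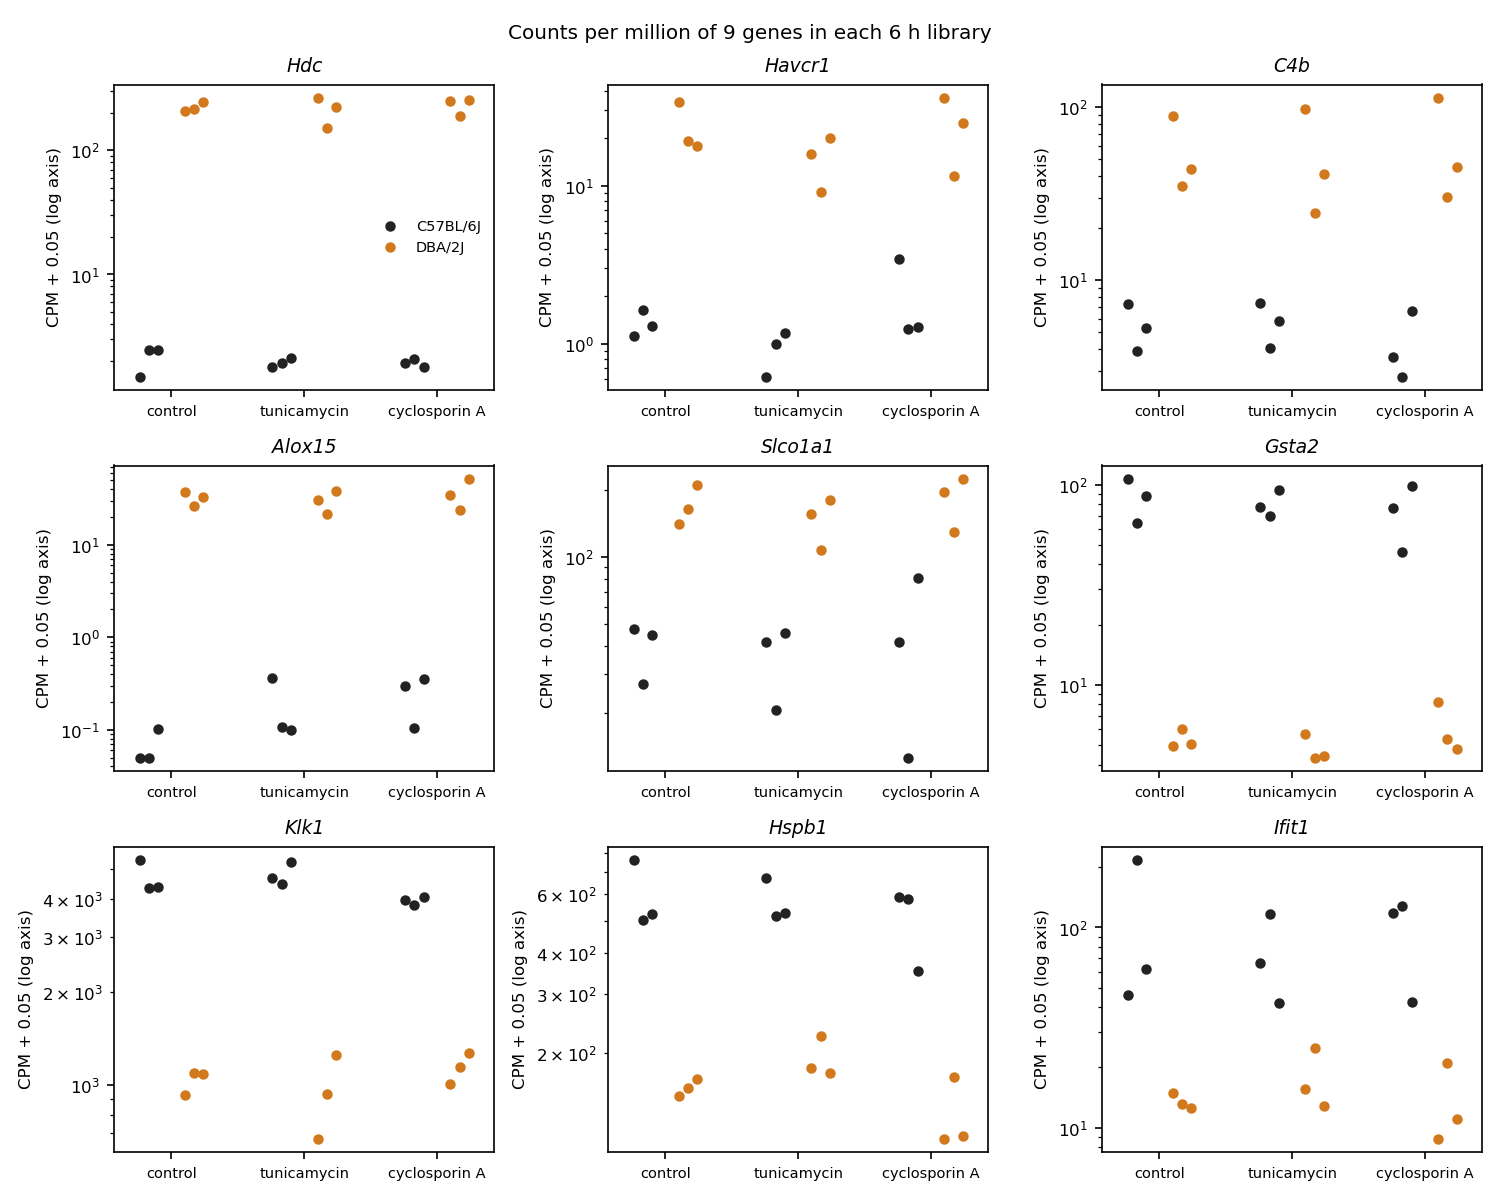
CPM of 9 genes in each of the 18 libraries, on a log axis after adding 0.05, with 1 point per library and the 3 treatments side by side. In all 9 panels the black C57BL/6J points and the orange DBA/2J points do not overlap, as for Hdc, at 1.45 to 2.43 CPM against 150.4 to 262 CPM. Some of these genes were named by a rule that required this, and 3246 of all 16896 genes tested were called and so separated (19.2%).

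Several of the genes with the largest log2 differences are described first, starting with those higher in DBA/2J. Such genes were taken from called genes with every library of 1 strain above every library of the other, so the choice set their separation. That held for 3246 of all 16896 genes tested (19.2%). Hdc (ENSMUSG00000027360, chr2:126593667-126619299), histidine decarboxylase, which makes histamine, was at 1.45 to 2.43 CPM (median 1.9) in C57BL/6J and 150.4 to 262 CPM (median 223) in DBA/2J, a log2 difference of 6.67 (SE 0.13, edgeR adjusted p = 2.05e-18). Alox15 (ENSMUSG00000018924, chr11:70344152-70352031), a lipoxygenase that oxygenates arachidonic acid, was at 0 to 0.31 CPM (median 0.0536) in C57BL/6J and 21.3 to 51.1 CPM (median 32.8) in DBA/2J, and its log2 difference was 7.89 (SE 0.30, edgeR adjusted p = 5.36e-13). Greb1, an estrogen-responsive gene, was at 0.0564 to 0.517 CPM (median 0.257) in C57BL/6J and 29.2 to 47.5 CPM (median 40.6) in DBA/2J. Alox15 and Greb1 had 20 and 44 counts over all 9 C57BL/6J libraries together, whereas Hdc had 26 to 47 counts in each of them. Serpina3b, a serine protease inhibitor of a large gene cluster, had 0 counts in all 9 C57BL/6J libraries and 4.07 to 6.84 CPM in DBA/2J. Against a floor of 3 counts per library it was at least 30.9-fold higher in DBA/2J. Tm4sf5, a membrane protein of the tetraspanin-like L6 family, was at 0 to 0.489 CPM (median 0.167) in C57BL/6J and 25.2 to 43 CPM (median 36.8) in DBA/2J. Mybpc3, a gene best known for cardiac myosin-binding protein C, was at 0 to 0.214 CPM (median 0.103) in C57BL/6J and 17.6 to 22.5 CPM (median 21.4) in DBA/2J. Neither gene overlapped between the strains, as that choice required.

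In the other direction, Azgp1 (ENSMUSG00000037053, chr5:137981520-137990233), a secreted zinc-binding glycoprotein, had 16 to 79.5 CPM (median 41.3) in C57BL/6J and 0 to 0.0438 CPM (median 0) in DBA/2J, with 1 count in all 9 DBA/2J libraries together. Trim12a, of the antiviral TRIM5 family, was at 10.7 to 14.3 CPM (median 12.5) in C57BL/6J and 0 to 0.115 CPM (median 0) in DBA/2J. Lrrc31, an epithelial leucine-rich repeat gene, was at 6.15 to 15 CPM (median 7.47) in C57BL/6J and 0 to 0.189 CPM (median 0) in DBA/2J. Of the interferon-inducible p200 genes on chromosome 1, which include sensors of DNA, Mndal (ENSMUSG00000090272, chr1:173849126-173942491) was at 14.8 to 29.3 CPM (median 20) in C57BL/6J and 0.306 to 0.822 CPM (median 0.462) in DBA/2J. Ifi206 and Ifi213 had log2 differences of -6.86 and -6.07. Ifi202b of the same family, named after its value was seen, went the other way, with a log2 difference of 5.25. Klk1 (ENSMUSG00000063903, chr7:44225360-44229618), tissue kallikrein, a protease of the distal nephron that releases kinins, was abundant in both strains, at 3809 to 5316 CPM (median 4361) in C57BL/6J and 673 to 1271 CPM (median 1090.3) in DBA/2J, a log2 difference of -2.24 (SE 0.11, edgeR adjusted p = 2.37e-12). The Ifi200, Trim12, Serpina3, class I MHC, C4, Hspa1, Ifit3, Gsta, Cyp4a12 and alpha-globin genes each have near-identical copies between which reads can be split, so the values of single members are uncertain. The reference is also the C57BL/6J genome, and the effect of mapping DBA/2J reads to it was not tested.

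Proximal tubule genes were higher in DBA/2J. Of the 30 transporters on the list, 22 were higher and 2 lower, with a median log2 difference of 0.75 against -0.003 over all genes tested. Slco1a1 (ENSMUSG00000041698, chr6:141907282-141946962), an organic anion uptake transporter, was at 12.6 to 80.4 CPM (median 41.7) in C57BL/6J and 108 to 223 CPM (median 164) in DBA/2J, a log2 difference of 1.93 (SE 0.25, edgeR adjusted p = 6.93e-06). Slc26a1, a sulfate and oxalate exchanger, was at 36 to 78 CPM (median 61.8) in C57BL/6J and 203 to 283 CPM (median 243) in DBA/2J, and its log2 difference was 1.92 (SE 0.12, edgeR adjusted p = 5.59e-10). Slc22a6 (ENSMUSG00000024650, chr19:8618039-8628299), the organic anion transporter OAT1 that loads drugs into the tubule cell, was at 96.8 to 426 CPM (median 264) in C57BL/6J and 475 to 841 CPM (median 755) in DBA/2J. None of these transporters, named for the largest differences on the list, overlapped between the strains (3246 of all 16896 genes tested, 19.2%). Slc22a2 (OCT2, 1.14) and Slc47a1 (MATE1, 1.13), which carry cationic drugs into the cell and out to the urine, were higher too, as were the endocytic receptors Lrp2 (0.97) and Cubn (0.95). The peptide transporter Slc15a2 (-0.72) and the sodium-proton exchanger Slc9a3 (-0.40) were lower. Without replicate number 2 of both strains, 21 of 30 were higher and 2 lower, with a median of 0.68. With the 3 sums per strain 16 were higher and 2 lower, and in control libraries alone 17 and 2.

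The marker list for the proximal tubule, which shares Lrp2, Cubn, Slc34a1, Slc5a12, Slc13a3 and Slc22a6 with the transporter list, moved the same way. It is therefore not separate support. It had 8 of 10 markers higher and 0 lower, among them Hnf4a, the transcription factor that maintains tubule identity (58.7 to 195 CPM, median 142, in C57BL/6J, and 216 to 388 CPM, median 319, in DBA/2J). The summed level of the 10 markers was 3014 to 10126 CPM in C57BL/6J (median 6774) and 7866 to 14115 CPM in DBA/2J (median 11302), so the sums overlapped. Their part in the transporter result was not tested. Markers of several other kidney cell types were lower. All 8 endothelial markers were lower in DBA/2J, with sums of 1622 to 2443 CPM in C57BL/6J against 954 to 1690 CPM in DBA/2J (Flt1, a VEGF receptor, -0.90). All 6 intercalated cell markers were lower as well, with sums of 417 to 584 CPM against 319 to 421 CPM (Foxi1, their defining transcription factor, -0.76), and so were 5 of 6 podocyte markers (sums of 1933 to 2391 CPM against 1197 to 2038 CPM). Thick limb and distal tubule markers gave 1 higher and 3 lower of 6, collecting duct principal cell markers 1 higher and 3 lower of 7, and stromal markers 1 higher and 6 lower of 9. With the 3 sums per strain, collecting duct principal cell markers gave 0 higher and 3 lower. Red blood cell markers gave 4 lower of 5, with a median of -0.61 and sums that overlapped, 105 to 276 CPM against 105 to 163 CPM, and the copies Hba-a1 (-0.04) and Hba-a2 (-4.70) differed widely. Of 6 fat markers 5 were too low to test. In slices, which hold many cell types, fewer cells of a type and less RNA per cell cannot be told apart.

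**Figure D2:**
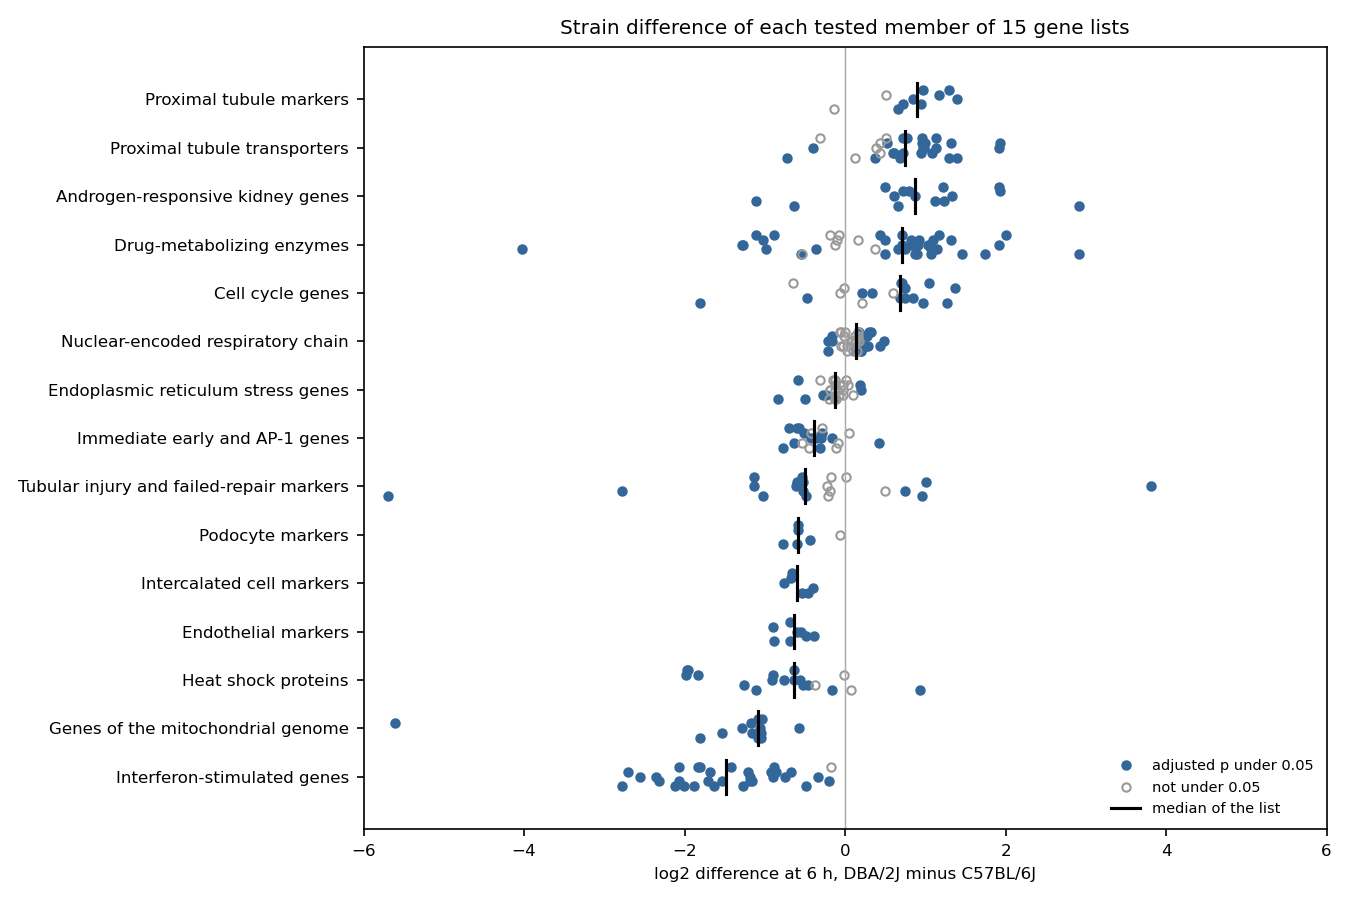
Log2 difference at 6 h (DBA/2J minus C57BL/6J) of each tested member of 15 gene lists, with filled points for members under an edgeR adjusted p of 0.05, open points for the rest and a black bar for the median. The medians of the proximal tubule lists lie to the right of 0 and those of the endothelial, heat shock, mitochondrial and interferon-stimulated lists to the left, with single members of the transporter, proximal marker and heat shock lists on the other side.

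Drug-metabolizing enzymes were mostly higher in DBA/2J, with exceptions. Of 41 tested, 25 were higher and 9 lower in DBA/2J, with a median log2 difference of 0.70, and with the 3 sums per strain 19 were higher and 9 lower. Proximal tubule markers were higher alongside (8 of 10, as above), and their part in this result was not tested. Cyp4a12a (ENSMUSG00000066071, chr4:115299046-115332815), an androgen-responsive fatty acid hydroxylase, was at 10.8 to 88.8 CPM (median 29.8) in C57BL/6J and 212 to 393 CPM (median 326) in DBA/2J, a log2 difference of 2.92 (SE 0.32, edgeR adjusted p = 6.97e-07). Cyp2e1, which oxidises ethanol and small solvents, was at 153 to 722 CPM (median 441) in C57BL/6J and 800.4 to 1508 CPM (median 1282) in DBA/2J. Cyp27b1, which activates vitamin D, was at 0.395 to 1.76 CPM (median 0.98) in C57BL/6J and 2.98 to 6.21 CPM (median 3.88) in DBA/2J. Acsm2, an acyl-CoA synthetase of the tubule, was at 550.1 to 2193 CPM (median 1331) in C57BL/6J and 2573 to 4556 CPM (median 3733) in DBA/2J. All 4 of these genes were higher in every DBA/2J library than in any of C57BL/6J, as were 2544 of all 16896 genes tested (15.1%). Of the 9 lower members, 3 were alpha-class glutathione transferases, which conjugate electrophiles and lipid peroxides. Gsta2 (ENSMUSG00000057933, chr9:78331018-78355788) was at 46.1 to 106 CPM (median 77) in C57BL/6J and 4.29 to 8.2 CPM (median 5.03) in DBA/2J, a log2 difference of -4.03 (SE 0.16, edgeR adjusted p = 6.48e-13), and Gsta3 (-1.29) and Gsta4 (-1.02) were lower as well. Gsta1 (-0.54) did not pass. Gclc, the catalytic subunit of the rate-limiting enzyme of glutathione synthesis, was at 458 to 863 CPM (median 543) in C57BL/6J and 275 to 355 CPM (median 308) in DBA/2J. Among NRF2 antioxidant targets 12 of 22 were lower and 4 higher.

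Androgen-responsive kidney genes were mostly higher in DBA/2J, 13 of 15, with 2 lower (Cyp7b1 -1.11 and Prlr -0.64). Gusb, beta-glucuronidase, a classic androgen-induced kidney gene, had a log2 difference of 1.33. Kap (ENSMUSG00000032758, chr6:133849851-133853762), the kidney androgen-regulated protein of the proximal tubule, was at 3073 to 9066 CPM (median 5080.5) in C57BL/6J and 7422 to 13638 CPM (median 10700.1) in DBA/2J, with a log2 difference of 0.79 (SE 0.17, edgeR adjusted p = 0.000623), and its strains overlapped. Most of these genes are themselves expressed in the proximal tubule, whose markers were higher alongside, and the part of those markers in this result was not tested. Ren1 (ENSMUSG00000070645, chr1:133350510-133360325), renin, varied widely within each strain, at 68 to 769 CPM (median 265) in C57BL/6J and 84.4 to 677 CPM (median 533) in DBA/2J, and its log2 difference of 0.41 (SE 0.48, edgeR adjusted p = 0.49) did not pass.

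Heat shock genes were lower in DBA/2J. Of 19 tested, 15 were lower and 1 higher, with a median log2 difference of -0.64. Their summed level was 10133 to 20487 CPM in C57BL/6J and 6925 to 8141 CPM in DBA/2J, without overlap. C57BL/6J replicate 1 had the highest sum of that strain within each treatment, 17821, 20487 and 13736 CPM in control, tunicamycin and cyclosporin A, against 10133 to 12563 CPM for replicates 2 and 3. Hspa1a and Hspa1b, near-identical neighbouring genes for inducible HSP70 whose promoter is shown for Hspa1b, had log2 differences of -1.98 and -1.97. Hspa1b (ENSMUSG00000090877, chr17:34956436-34959238) was at 951 to 2825 CPM (median 1369.9) in C57BL/6J and 322 to 583 CPM (median 461) in DBA/2J. Hspb1 (ENSMUSG00000004951, chr5:135887919-135889563), the small chaperone HSP27, was at 353 to 759 CPM (median 528) in C57BL/6J and 110.2 to 224 CPM (median 167) in DBA/2J. Both genes were lower in every DBA/2J library than in any C57BL/6J library. The cytosolic partners Hsph1 (-1.83), Hsp90aa1 (-1.26), Bag3 (-1.11) and Dnajb1 (-0.90) were lower too. Hspb8, a small chaperone that works with Bag3, was the member that was higher (0.94). Hsf1, the regulator itself (0.08), the mitochondrial HSP70 gene Hspa9 (-0.02) and Hspd1 (-0.37) did not pass. With the 3 sums per strain, 12 of 19 were lower, without replicate number 1 of both strains 14 were, with a median of -0.59, and without number 2 of both strains 15 were. Both of the last alternatives were chosen after seeing the data.

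Immediate early genes, which respond within minutes to stress and growth factors, were lower in 12 of 20 cases and higher in 1 (Klf4, 0.43). Atf3, a stress-induced repressor, had a log2 difference of -0.78 (SE 0.17, edgeR adjusted p = 0.000694) and was at 1176 to 2229 CPM (median 1421) in C57BL/6J and 717 to 1663 CPM (median 893) in DBA/2J, so the strains overlapped. Egr1 (-0.60), Junb (-0.57) and Jun (-0.51) were lower. With the 3 sums per strain, 6 were lower. Endoplasmic reticulum stress genes, which respond to unfolded proteins, were called in 8 of 26 cases, 2 higher and 6 lower, a smaller share than that over all genes, and with the 3 sums per strain 0 were higher and 3 lower. Without replicate number 1 of both strains 3 were higher and 1 lower. Hspa5, the lumenal chaperone BiP, was at 2632 to 4779 CPM (median 3334) in C57BL/6J and 1823 to 3812 CPM (median 2641) in DBA/2J, a log2 difference of -0.59 (SE 0.15, edgeR adjusted p = 0.00258).

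**Figure D3:**
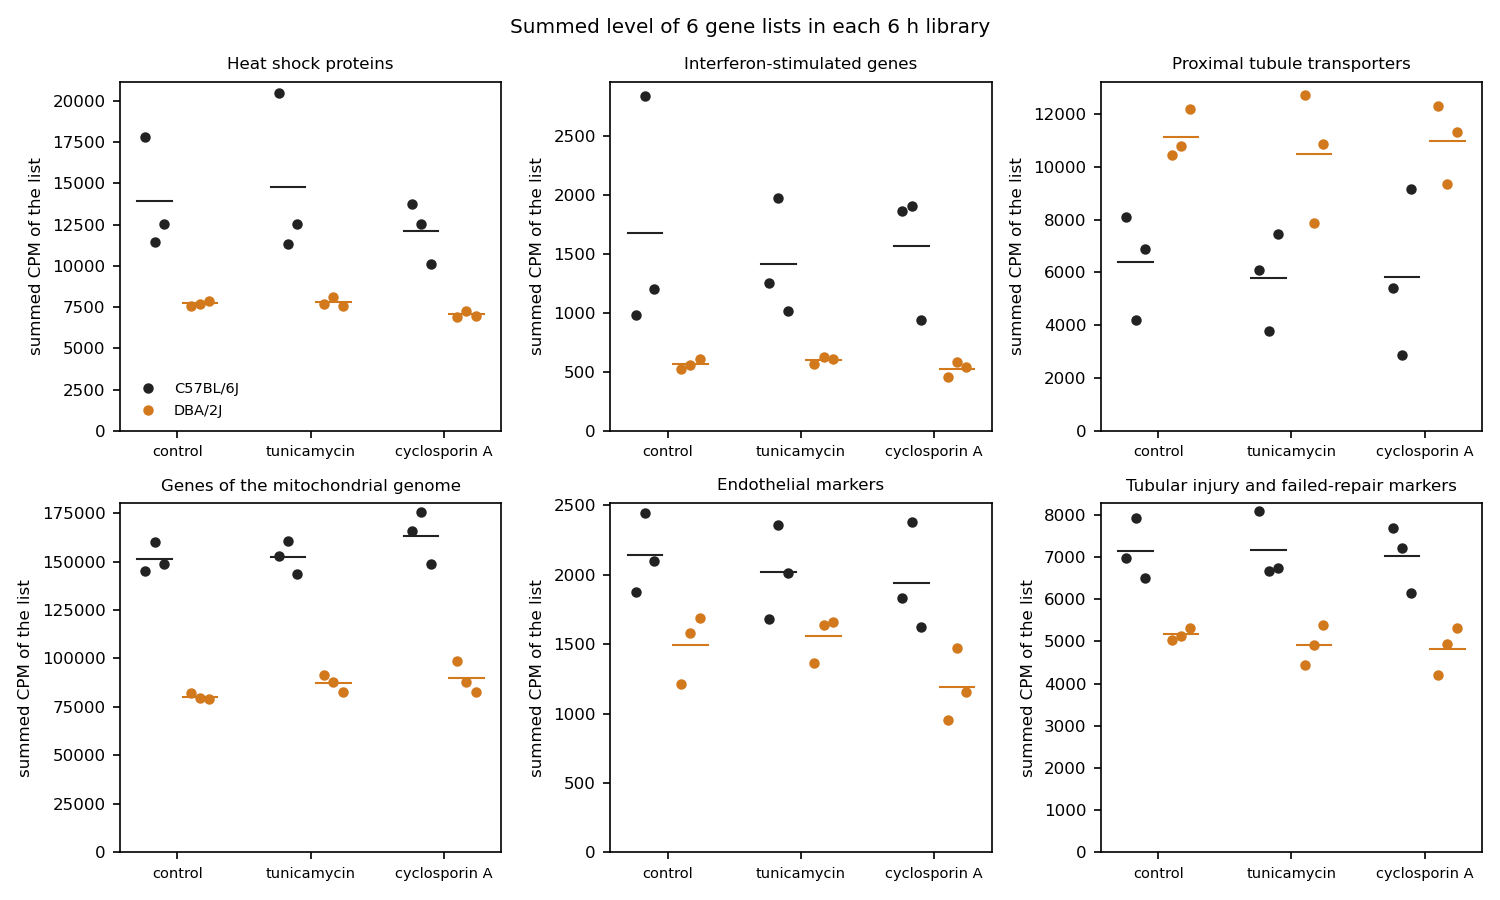
Summed CPM of 6 gene lists in each of the 18 libraries, with 1 point per library, bars for the mean of 3, and the treatments side by side. Heat shock, interferon-stimulated, mitochondrial and injury sums are higher in every C57BL/6J library than in any DBA/2J library, whereas the transporter sums are mostly higher in DBA/2J.

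Interferon-stimulated genes were lower in DBA/2J with few exceptions. Of 32 tested, 31 were lower and 0 higher, with a median log2 difference of -1.48, and for 21 of them every DBA/2J library was below every C57BL/6J library. Over all genes tested this held for 702 of 16896 (4.15%). Ifit1 (ENSMUSG00000034459, chr19:34640871-34650009), which binds viral RNA, was at 41.7 to 216 CPM (median 66.2) in C57BL/6J and 8.78 to 24.8 CPM (median 13.1) in DBA/2J, a log2 difference of -2.78 (SE 0.35, edgeR adjusted p = 4.17e-06). Cxcl10 (ENSMUSG00000034855, chr5:92346638-92348889), the chemokine that attracts CXCR3-positive T cells, was at 119 to 333 CPM (median 155) in C57BL/6J and 42.3 to 74.2 CPM (median 51.5) in DBA/2J, a log2 difference of -2.07 (SE 0.23, edgeR adjusted p = 1.22e-06). Isg15 (-2.07), a ubiquitin-like modifier, Rsad2 (-2.36), the antiviral enzyme viperin, and Usp18 (-2.01), which limits interferon signalling, were lower as well, and the regulators Irf7 (-1.15) and Irf9 (-0.90) less so. Oas2 (-0.18) did not pass. Their CPM summed to values of 938 to 2838 across C57BL/6J libraries but 454 to 625 across those of DBA/2J, and the highest sum was in C57BL/6J control replicate 2. Without replicate number 2 of both strains, 28 of 32 were lower and the median was -1.11.

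Antigen presentation genes were mixed. Of 29 MHC and presentation genes, 6 were higher and 14 lower in DBA/2J. The class I gene H2-Q10 was at 0.0564 to 0.465 CPM (median 0.268) in C57BL/6J and 32.2 to 43.8 CPM (median 37.9) in DBA/2J, and H2-Q2 was at 2.16 to 4.35 CPM (median 2.64) in C57BL/6J and 19.1 to 27.3 CPM (median 23) in DBA/2J. Both were higher in every DBA/2J library, whereas H2-K1 (-0.81), B2m (-0.34) and Tap1 (-1.15), which loads peptides, were lower. Among 24 complement genes 7 were higher and 8 lower, and with a random block of strain and number 7 and 5. C4b (ENSMUSG00000073418, chr17:34728380-34743882), complement component 4, was at 2.73 to 7.39 CPM (median 5.28) in C57BL/6J and 24.4 to 113 CPM (median 44) in DBA/2J, a log2 difference of 3.34 (SE 0.34, edgeR adjusted p = 2.84e-07). Its neighbour C4a was at 0.49 to 1.24 CPM (median 0.975) in C57BL/6J and 23 to 48.2 CPM (median 38.5) in DBA/2J. C3 (1.01) and Cfb (1.01), the alternative pathway components, were higher, whereas the regulators Cd59a (-0.73) and Clu (-1.14) were lower.

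Chemokines moved in both directions. Among 26 cytokine and chemokine genes tested, 8 were higher and 10 lower in DBA/2J. The neutrophil attractants Cxcl1 (1.70), Cxcl2 (1.82) and Cxcl3 (2.44) were higher, and Cxcl2 was at 7.81 to 23.7 CPM (median 11.1) in C57BL/6J and 37.7 to 60 CPM (median 50.3) in DBA/2J. The T cell attractants Cxcl10 and Ccl5 (-1.68) and the stromal Cxcl12 (-0.76) and Cxcl14 (-1.39) were lower. Il6 (0.25), Il1b (-0.16) and Csf3 (-0.02) did not pass. Macrophage and dendritic markers gave 8 higher and 4 lower of 18, with sums of 184 to 293 CPM in C57BL/6J and 236 to 328 CPM in DBA/2J. With the 3 sums per strain 7 were higher and 2 lower, and with the random block 6 and 2. Mrc1, the mannose receptor of tissue macrophages, was at 3.52 to 9.16 CPM (median 6.25) in C57BL/6J and 12.3 to 15.9 CPM (median 13.4) in DBA/2J. Their part in the chemokine result was not tested.

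Lymphocyte markers were mixed, but immunoglobulin gene segments were higher in DBA/2J. Of these, 97 of 102 variable, 8 of 8 joining and 7 of 10 constant segments passed as higher and 0 as lower. Over all genes tested the share higher was 27.8%. A gene could pass the filter on low counts through 1 strain alone, so these counts are a description. Jchain (ENSMUSG00000067149, chr5:88519809-88527891), which joins secreted antibodies, was at 1.47 to 3.71 CPM (median 2.73) in C57BL/6J and 24.9 to 106 CPM (median 66.1) in DBA/2J, a log2 difference of 4.39 (SE 0.32, edgeR adjusted p = 3.95e-09). Cd79a, a subunit of the B cell receptor, had a log2 difference of 0.83. The T cell constant segment Trac was higher (2.30) while Cd3d (-1.62) and Cd8a (-1.94) were lower. Among 12 tested lymphocyte and mast cell markers 5 were higher and 5 lower, with sums of 41.98 to 59.3 CPM in C57BL/6J and 79.1 to 168 CPM in DBA/2J. Without Jchain, a sum taken after seeing the data, they were 39.8 to 55.8 CPM and 52.6 to 62.6 CPM and overlapped.

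Injury markers moved in both directions. Of 22 tubular injury and repair genes, 4 were higher and 12 lower in DBA/2J, with a median log2 difference of -0.50. Havcr1 (ENSMUSG00000040405, chr11:46735080-46779578), the injury receptor KIM-1 of the proximal tubule, was at 0.569 to 3.37 CPM (median 1.18) in C57BL/6J and 9.02 to 35.6 CPM (median 19.1) in DBA/2J, a log2 difference of 3.81 (SE 0.28, edgeR adjusted p = 5.35e-09). It was thus higher in every DBA/2J library than in any C57BL/6J library, as was Il34 (1.01), a macrophage growth factor, and no other member of the list. The fibrinogen chain Fgg was at 1.71 to 7.58 CPM (median 5.64) in C57BL/6J and 0.153 to 1.27 CPM (median 0.832) in DBA/2J. Fgb had 4 counts in all in DBA/2J against 226 in C57BL/6J. The intermediate filament genes Krt8 (-0.54) and Krt7 (-0.61), the secreted phosphoprotein Spp1 (-0.60) and clusterin (Clu, -1.14) were lower. Lcn2, neutrophil gelatinase-associated lipocalin, was at 7.87 to 54.1 CPM (median 19.4) in C57BL/6J and 4.12 to 29.6 CPM (median 8.14) in DBA/2J, and its log2 difference of -1.14 (SE 0.43, edgeR adjusted p = 0.0319) did not pass with the 3 sums per strain or after leaving out any of several single libraries. Without replicate number 2 of both strains, 5 of 22 were higher, 9 lower and the median was -0.28.

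Transcripts of the mitochondrial genome took a smaller share of counts in DBA/2J. The share was 15.9% ± 1.07 in C57BL/6J and 8.72% ± 0.65 in DBA/2J (SD, n = 9), with ranges of 14.6% to 17.8% and 8.05% to 10.04%. The difference of -7.14 percentage points had an exact permutation p of 0.00025 (two-sided, strain labels permuted within treatment), the smallest that 8000 arrangements can give. The permutation took all libraries as separate units. Same-numbered libraries of a strain may share a mouse, so this p may be too small. All 13 protein-coding genes were lower, with a median log2 difference of -1.09. The cytochrome b gene mt-Cytb was at 52742 to 60099 CPM (median 56716) in C57BL/6J and 26388 to 32788 CPM (median 29489) in DBA/2J. The complex I subunit gene mt-Nd5 was at 8536 to 10979 CPM (median 9551) in C57BL/6J and 3366 to 4142 CPM (median 3543) in DBA/2J. The low-count subunit gene mt-Nd3 was at 1.51 to 8.88 CPM (median 5.18) in C57BL/6J and 0 to 0.346 CPM (median 0.0913) in DBA/2J, and no library overlapped for any of these 3 genes. Of 38 nuclear genes for the same respiratory complexes 16 were higher and 4 lower, with a median log2 difference of 0.14 (Cox5a 0.48, Uqcrc1 0.30). With the 3 sums per strain 6 were higher and 0 lower, and in control libraries alone 0 passed in either direction, with a median of 0.03. Leaving the mitochondrial genes out of the fit gave 9329 called genes.

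Other metabolic groups were divided. Cholesterol synthesis enzymes gave 11 higher and 5 lower of 22, with Nsdhl (1.17) higher and Sc5d (-0.997) lower although both act late in the pathway. In fatty acid and ketone metabolism 12 were higher and 8 lower of 34. Acox2, a peroxisomal oxidase, was lower, at 10.6 to 24.5 CPM (median 16.3) in C57BL/6J and 4.47 to 7.49 CPM (median 6.26) in DBA/2J. Glycolysis and gluconeogenesis gave 10 higher and 10 lower of 25, the gluconeogenic G6pc being higher (1.31) and the glycolytic Gpi1 lower (-1.05). With the 3 sums per strain, higher and lower counts were 8 and 2 for cholesterol synthesis, 5 and 6 for fatty acid and ketone metabolism, and 6 and 5 for glycolysis and gluconeogenesis. Cell cycle genes were higher in 13 of 20 cases and lower in 2, but most were at low levels (Ccnb1 at 0.155 to 0.559 CPM (median 0.293) in C57BL/6J and 0.343 to 1.31 CPM (median 0.959) in DBA/2J) and 9 passed upwards with the 3 sums per strain. The helicase subunit gene Mcm6 was lower, at 15.4 to 21.4 CPM (median 17) in C57BL/6J and 4.29 to 8.27 CPM (median 4.75) in DBA/2J.

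Scaling touched the counts of separated genes. All 9 libraries of one strain lay above all 9 of the other for 3246 called genes (19.2%), 2544 higher (15.1%) and 702 lower (4.15%) in DBA/2J, on CPM scaled to total counts. On CPM scaled with TMM factors, which were 0.907 to 0.996 in C57BL/6J and 1.03 to 1.07 in DBA/2J, the split was 1599 higher (9.46%) and 1170 lower (6.92%). The CPM values above therefore place DBA/2J higher by 0.14 on the log2 scale than the fitted differences do. Processed pseudogenes also stood out, with 160 of 424 called at a log2 difference of at least 1, of which 140 were higher in DBA/2J, while 1266 of 14583 protein-coding genes passed that limit (8.68%). Unprocessed pseudogenes (24 of 45) and immunoglobulin variable segments (97 of 102, all 97 higher in DBA/2J) passed it at larger shares. A gene could pass the filter on low counts through 1 strain alone and then had to differ, so these counts are a description. Among 34 cytosolic ribosomal genes, a class with many processed pseudogenes, 5 were higher and 7 lower, including Rpl29 (-1.86), Rplp0 (-1.18) and Rps18 (-0.71), and with the 3 sums per strain 0 were higher and 7 lower. The pseudogenes were not matched to parent genes, and reads of a gene and of its copies can be split between them.

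The strain difference at 6 h was set against that in the 18 libraries of the same treatments at 24 h, in 1 fit of 36 libraries. At 24 h, 7755 of 18174 genes differed between the strains (42.7%). In this fit 9659 genes were called at 6 h, and 5493 genes were called at both times with the same sign, which is 56.9% of the 6 h calls and 70.8% of the 24 h calls. The difference between the 2 strain differences itself passed for 2207 genes (12.1%), but in control libraries alone for 117. Of the 2207, 893 had the larger difference at 6 h and 343 at 24 h in the same direction, and 971 had estimates of opposite sign, of which 190 were called at both times.

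Of the 36 lists, the heat shock list had the largest share of members with a strain difference that changed between the times. For 15 of 19 the strain difference was more negative at 6 h than at 24 h by the test of that difference, and for 0 it was more positive. The median log2 difference was -0.63 at 6 h and -0.01 at 24 h. Hspb1 went from -1.95 to -0.20 (edgeR adjusted p of the difference = 2.46e-08) and Hspa1b from -1.97 to -0.12 (edgeR adjusted p = 7.22e-06). At 24 h Hspb1 was at 191 to 291 CPM (median 255) in C57BL/6J and 194 to 279 CPM (median 211) in DBA/2J, so the strains overlapped there. In control libraries alone, an alternative read for lists after seeing the data, 7 of 19 passed and the median difference between the times was -0.73.

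**Figure D4:**
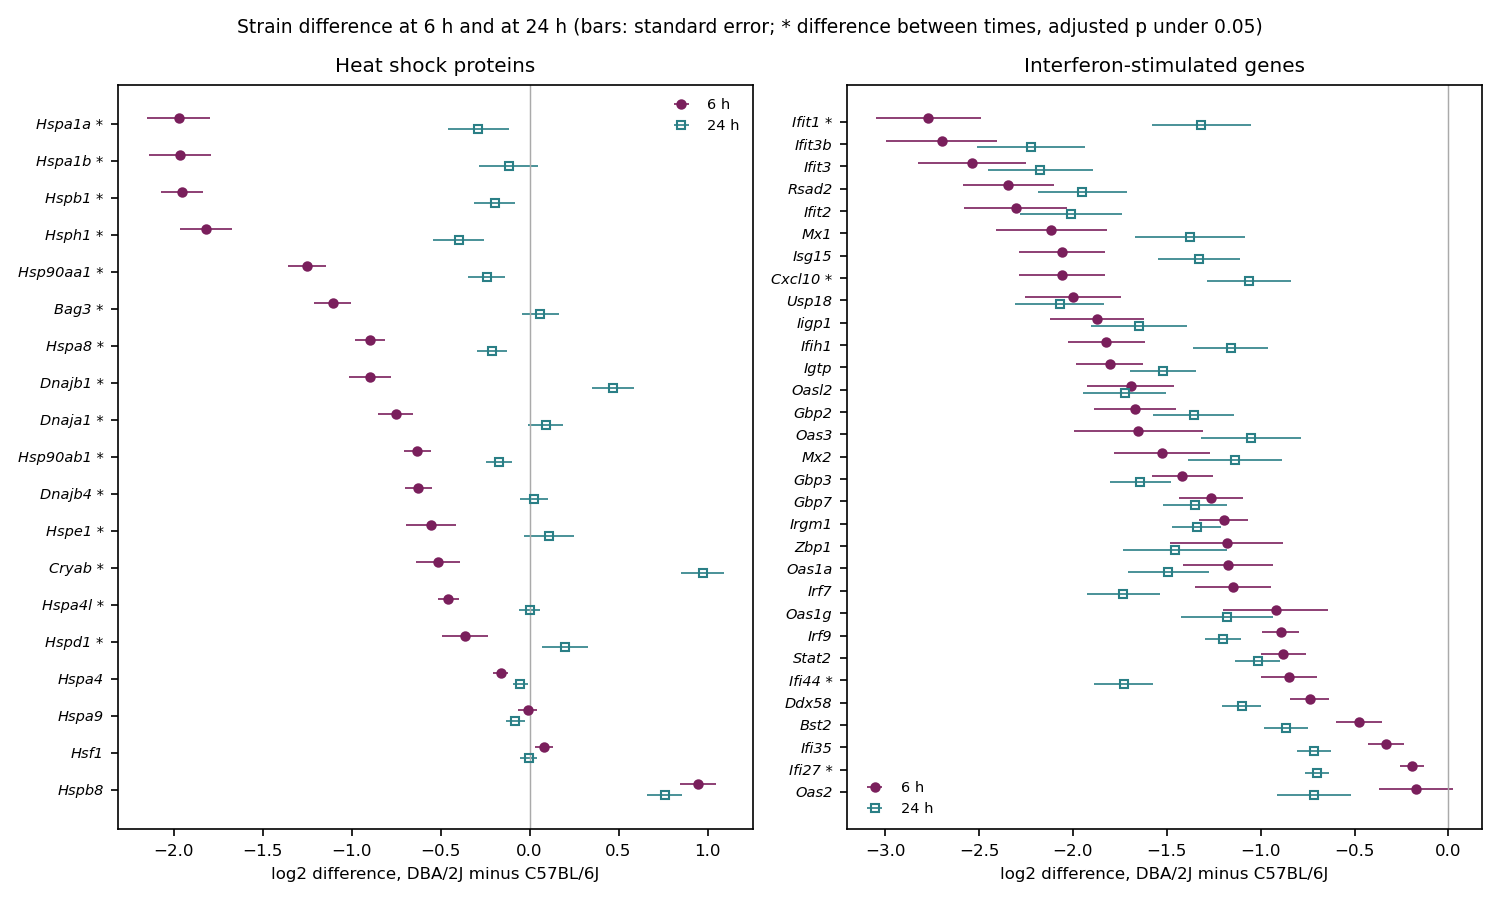
Log2 difference (DBA/2J minus C57BL/6J) with its standard error at 6 h (filled circles) and 24 h (open squares) for 19 heat shock and 31 of 32 interferon-stimulated genes, with an asterisk where the difference between the times had an edgeR adjusted p under 0.05. Heat shock points move from a median of -0.63 to -0.01, whereas interferon-stimulated points stay left of 0, at medians over all 32 of -1.47 and -1.35.

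Interferon-stimulated genes stayed lower in DBA/2J, 32 of 32 at 24 h, and the difference between the times passed for 4 of 32, in 2 of which (Ifit1 and Cxcl10) it was larger at 6 h. In control libraries alone 0 of 32 passed. Proximal tubule transporters had a median of 0.75 at 6 h and 1.37 at 24 h, but the difference passed for 1 of 30, and in control libraries alone for 0. That 1 gene, Slc15a2, was lower in DBA/2J at both times (-0.72 and -1.82), so no transporter with a larger positive difference at 24 h passed. Among single genes, Gsta2 went from -4.03 at 6 h to 0.11 at 24 h (edgeR adjusted p of the difference = 6.22e-13), where it was at 68.2 to 155 CPM (median 108) in C57BL/6J and 96.8 to 156 CPM (median 116) in DBA/2J. Havcr1 went from 3.84 to 1.29 (edgeR adjusted p = 0.000371), which did not pass in control libraries alone (edgeR adjusted p = 0.0613). Vwa1, an extracellular matrix protein gene, changed sign, from -0.92 to 1.44 (edgeR adjusted p = 2.34e-08), and so did Tmem108, from 0.31 to -1.28. Hgsnat, a lysosomal acetyltransferase, had the larger difference at 24 h, -2.75 against -0.95, and so had Car12, a carbonic anhydrase (1.51 against 0.34). For the chemokines Cxcl2 and Cxcl3 the log2 differences at 24 h were 0.89 and 1.70, and for Hdc 5.001.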

How the data were processed

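RNA-seq was made from cultured kidney slices with a stranded mRNA kit, per the labels' protocols. The values are raw counts per gene as deposited by the authors. The submitters' processing notes name bcl2fastq 2.20.0, FastQC 0.11.8, STAR 2.7.9a, featureCounts 1.5.1 and GRCm38. The strand setting and the annotation used for counting are not given in the sources used here, so overlapping and antisense genes cannot be told apart. Coordinates and biotypes were taken from GENCODE M21 (55227 of 55487 gene IDs matched), and promoter sequences from RefSeq.

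Counts of 18 libraries, 16330120 to 22841801 per library, were fitted with edgeR 4.0.16 (filterByExpr over the 6 groups, TMM factors, robust quasi-likelihood F test, treatment and strain as terms) in R 4.3.3, with Benjamini-Hochberg adjustment over all genes tested and calls at 0.05. The fit was tested on simulated data. CPM are counts scaled to a library total of 1000000. The comparison with 24 h used 1 fit of 36 libraries and 12 group means. Alternatives were RLE factors, no filter, DESeq2 1.42.0, limma 3.58.1 (voom with a random block), a replicate block, sums per strain and number, single treatments, no mitochondrial genes and leaving out libraries.

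The 10 largest log2 differences and the 6 largest CPM differences in each direction were named by rule. They came from protein-coding genes with a called and fully separated difference and a mean log2 CPM of at least 1. Also named, separated or not, were up to 3 called members of each of 36 lists and 15 fixed genes. The 5 smallest p in each direction for the comparison of times were named as well. Not every gene so chosen is described, some list members are counted but not reported by name here, and further list members were named after their values were seen. The comparison and the lists were chosen with earlier results of these data known. Intervals were not computed, and counting error is small at this depth except for genes near 0.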

Additional observations from a re-analysis of the deposited data

Results flagged for a closer look

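Within the 9 libraries of a strain, 21 values stood far from the rest by Dixon's ratio at the 95% level, a check that chance passes in about 1 of 20 groups, and 145 genes in 2 strains were looked at. The 9 libraries mix 3 treatments. In C57BL/6J the highest value lay apart for Ifit1 (control replicate 2, 216 CPM), Hba-a2 (control replicate 1, 21.9 CPM), Vwa1 (control replicate 1, 29.5 CPM), Actc1 (control replicate 1, 0.336 CPM), Hc (control replicate 2, 0.225 CPM), Lum (tunicamycin replicate 2, 2.12 CPM), Havcr1 (cyclosporin A replicate 1, 3.37 CPM) and mt-Nd4l (cyclosporin A replicate 1, 10.9 CPM). The lowest lay apart there for Glo1 (control replicate 2, 40.9 CPM) and Car12 (cyclosporin A replicate 2, 210.1 CPM).

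In DBA/2J the highest value lay apart in control replicate 1 for the matrix genes Mmp2 (35.9 CPM) and Col1a2 (159 CPM) and for Clec10a (3.38 CPM). It lay apart in tunicamycin replicate 2 for the endoplasmic reticulum stress genes Hspa5 (3812 CPM) and Chac1 (125 CPM) and for Gcnt1 (124 CPM), and in tunicamycin replicate 1 for mt-Nd3 (0.346 CPM). In cyclosporin A replicate 1 it lay apart for mt-Nd1 (11937 CPM), mt-Nd2 (9474 CPM) and Gsta2 (8.20 CPM), and the lowest value for Mt2 (116 CPM).

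The strain difference differed between 6 h and 24 h for 2207 genes by the edgeR test of that difference (117 in control libraries alone), and of the 2207 the 5 with the smallest p in each direction are given here. On the log2 scale, 6 h minus 24 h, it was 2.41 for H2-Q10, 2.03 for H2-Q2, 1.80 for Hgsnat, 1.59 for Tmem108, 0.86 for Ergic1, -0.83 for Abr, -1.17 for Car12, -1.76 for Hspb1, -2.37 for Vwa1 and -4.14 for Gsta2.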

How the results depend on the processing

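The count of genes called between the strains, 9352, lay between 9316 and 9913 with RLE factors, no filter on low counts and DESeq2, and was 7784 with a random block of strain and number (limma voom). It was 3713, 3267 and 4061 in the control, tunicamycin and cyclosporin A libraries alone, each 3 against 3. Leaving out single libraries or numbers gave 7886 to 9751 for calls, 1764 to 2130 for calls with a log2 difference of at least 1, 3287 to 4531 for separated genes, 0 to 1 for strain by treatment (1 without C57BL/6J cyclosporin A replicate 3), 1906 to 2559 for strain by time, and -7.39 to -6.94 points for the mitochondrial share. Separated genes numbered 6041 with sums per strain and number, where 3 values face 3. Strain by time gave 117 genes in control libraries alone.

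The replicate block gave 9915 genes. Residuals of same-numbered libraries of a strain had a mean correlation of 0.211 (-0.0273 to 0.428), with 14 of 18 pairs over 0.1. For other numbers of the same strain the mean was -0.105, with 2 of 36 pairs over 0.1, and for the same number of the other strain 0.0847, with 10 of 27. Not every pair was over 0.1 and the labels do not say what a number marks, so the numbers were not taken as a pairing. Same-numbered libraries of a strain did deviate together, so p-values over 9 libraries may be too small, and the counts with a random block and with sums allow for this. Among named genes, Ahr reversed to -0.0483 in cyclosporin A libraries alone (edgeR adjusted p = 0.873) and Ren1 to -0.0091 without number 1 of both strains (edgeR adjusted p = 0.993). Without number 1 or number 2 of both strains, both chosen after seeing the data, 7721 and 8053 genes were called. The source of these shifts was not tested beyond the number of samples.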
